A study of Mus musculus with 6 samples.

Results

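The genes described here are 10 marker genes of the endothelium, the cell layer that lines blood vessels: Kdr, Flt1, Tek, Tie1, Pecam1, Cdh5, Emcn, Eng, Plvap and Egfl7. They were chosen by name, by matching the gene symbol in the deposited count and TPM tables, and all 10 were found among 55401 gene identifiers. Poly(A) RNA of kidney was sequenced from mice with type 1 diabetes induced by streptozotocin, a toxin of the insulin-producing beta cells. The 2 groups were WT/Sed (genotype WT, 3 libraries) and Cdo1KKO/Sed (genotype KO, 3 libraries), and both were diabetic, so no kidney of a non-diabetic mouse is part of the comparison. The series asks which signalling pathways respond to the loss of Cdo1 in renal tubules. The labels do not spell out Sed or the deletion in Cdo1KKO, and give no promoter of a Cre driver, age, sex, litter, batch or pooling. They call the libraries biological replicates, and p-values measure the spread between these libraries.

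Endothelial cells sense vascular endothelial growth factors through KDR (VEGFR2) and FLT1 (VEGFR1), and angiopoietins through the receptor kinase TEK (TIE2), with TIE1 as its partner. They adhere to each other through VE-cadherin and PECAM1. In the kidney they form the fenestrated capillaries of the glomerulus, which podocytes supply with VEGF-A, and the capillaries around the tubules, which carry away what the tubules reabsorb.

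Promoters of the group are known as targets of ETS transcription factors, which bind a GGAA core, so 3 promoters are shown before the expression values. Kdr had the highest fold change of the 10 genes, Egfl7 the lowest, and Tie1 the most GGAA cores. Sequences run from 250 bases before to 50 bases after a gene start, 5′ to 3′ on the gene's strand (RefSeq, GRCm38.p6). Capitals mark GGAA or its reverse complement TTCC.
Kdr, chr5:75978406-75978705, minus strand: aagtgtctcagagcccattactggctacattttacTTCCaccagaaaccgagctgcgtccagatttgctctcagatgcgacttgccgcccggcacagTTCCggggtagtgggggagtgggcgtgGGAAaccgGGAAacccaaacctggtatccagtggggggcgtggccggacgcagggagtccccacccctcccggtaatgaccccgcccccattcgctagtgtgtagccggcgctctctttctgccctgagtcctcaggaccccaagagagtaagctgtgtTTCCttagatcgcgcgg
Tie1, chr4:118489800-118490099, minus strand: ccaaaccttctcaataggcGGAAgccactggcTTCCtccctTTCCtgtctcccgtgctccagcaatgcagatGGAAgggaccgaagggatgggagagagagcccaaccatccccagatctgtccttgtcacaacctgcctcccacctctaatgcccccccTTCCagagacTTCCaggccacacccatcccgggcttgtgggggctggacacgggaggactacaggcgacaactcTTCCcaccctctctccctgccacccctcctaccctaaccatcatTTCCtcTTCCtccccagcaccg
Egfl7, first of 3 starts, chr2:26580833-26581132, plus strand: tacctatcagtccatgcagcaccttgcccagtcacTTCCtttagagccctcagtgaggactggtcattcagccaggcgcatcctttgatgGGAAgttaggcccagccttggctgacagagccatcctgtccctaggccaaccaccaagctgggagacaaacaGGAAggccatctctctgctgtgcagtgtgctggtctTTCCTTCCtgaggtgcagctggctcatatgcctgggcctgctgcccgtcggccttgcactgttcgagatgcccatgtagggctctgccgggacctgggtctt
The Kdr promoter held 5 such cores, the Tie1 promoter 9 and this Egfl7 promoter 5. A promoter sequence was matched for 7 of the 10 genes, with 9 starts in all, and the other 4 genes with 1 start held between 2 and 6 cores (Tek 2, Eng 4, Flt1 4, Emcn 6). The core is common: 96% of 32851 promoters of the same length held it on either strand, with a median of 3 matches. The longer AGGAAG (or CTTCCT), which contains the core, was found in 6 of the 9 promoters and in 35.4% of all promoters, with 3 matches in the first Egfl7 promoter and none in those of Kdr and Tek. A match describes these letters and shows no binding.

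Egfl7 also hosts a microRNA of endothelial cells in an intron. Its mature 3p strand is shown because the poly(A) libraries measured only the host gene: the hairpin genes Mir126a and Mir126b were listed at 0 counts, and the mature microRNA was not measured. The seed, bases 2 to 8, is in capitals.
mmu-miR-126a-3p, chr2:26591402-26591423, plus strand: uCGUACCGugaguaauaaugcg

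The libraries held 28145261 to 43872779 counts. Levels are given as CPM, counts scaled to library size with TMM factors, or as TPM, the deposited values per transcript length. The words rose and fell are used for genes with a Benjamini-Hochberg adjusted p under 0.05 in edgeR's quasi-likelihood test over 17194 genes, and fold changes (log2, Cdo1KKO/Sed divided by WT/Sed) carry an approximate standard error (SE). Cdo1 (ENSMUSG00000033022.8) held 181, 191 and 180.5 CPM in WT/Sed, against 109.5, 118 and 102.5 CPM in Cdo1KKO/Sed (log2 fold change -0.74 ± 0.06, adjusted p = 4.64e-06), so the transcript was lower but present in every Cdo1KKO/Sed library. Within WT/Sed, replicate 2 stood high and replicate 3 low for endothelial genes, as described next, and results are therefore also given without replicate 3. All pairs of libraries of 1 group differed by more than counting noise (chi-square per degree of freedom 3.39 or more).

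None of the 10 endothelial genes rose or fell, and the 3 WT/Sed kidneys differed among themselves more than the group means did. Their summed level was 209.5, 352 and 92.1 CPM in WT/Sed replicates 1, 2 and 3, and 321, 309 and 313 CPM in Cdo1KKO/Sed. The WT/Sed libraries lay on both sides of a narrow Cdo1KKO/Sed range. In bulk tissue, fewer endothelial cells and less RNA per endothelial cell cannot be told apart. All 10 genes passed the filter on low counts, and 9 had a positive fold change, yet edgeR called 0 of 10 in either direction, with 0 at an unadjusted p under 0.05 (the lowest was 0.147), and DESeq2 and limma-voom also called 0. Over all genes tested, 18.9% rose and 18.5% fell (37.4% together). The median log2 fold change of the 10 genes was 0.62, against 0.01 over all genes. Without WT/Sed replicate 3 it was 0.24, 7 of 10 were positive, and only Egfl7 was called (it fell), where 20.3% of all genes rose and 20% fell (40.3% together). Without WT/Sed replicate 2 the fold changes were larger instead, from 0.11 for Egfl7 to 1.525 for Kdr. Only Tie1 was then called (it rose), where 3767 of 17820 genes rose and 3553 fell.

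**Figure D1:**
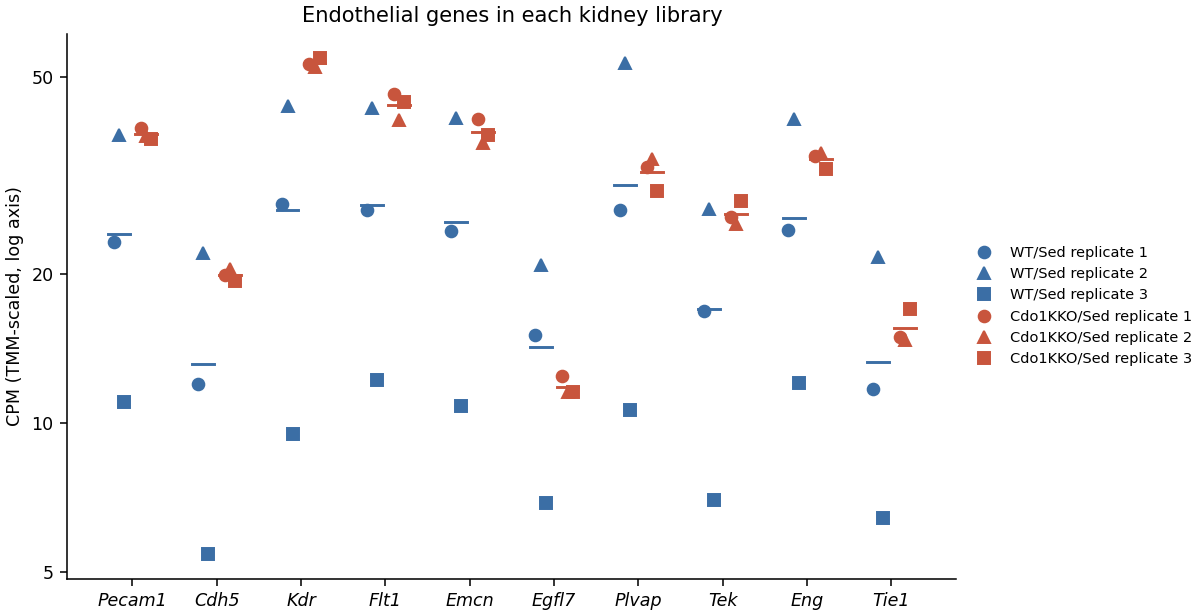
CPM (TMM-scaled, log axis) of the 10 endothelial genes in each of the 6 kidney libraries; each point is 1 library, with WT/Sed and Cdo1KKO/Sed in separate colours. For every gene the WT/Sed libraries fall in the order 2, 1, 3, while the Cdo1KKO/Sed libraries lie close together.

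Among the receptors for VEGF, Kdr (ENSMUSG00000062960.10, chr5:75932827-75978458, minus strand, GRCm38), the main signalling receptor for VEGF-A, held 27.7, 43.7 and 9.49 CPM in WT/Sed, against 53.2, 52.2 and 54.5 CPM in Cdo1KKO/Sed. It was the only one of the 10 whose groups did not overlap (25.7% of all genes were higher and 24.5% lower without overlap). Its log2 fold change was 1.00 ± 0.57, a 2.00-fold difference, with an adjusted p of 0.251. An interval of 2 SE ran from -0.13 to 2.14, so the sign was not resolved. Without WT/Sed replicate 3 the value was 0.59 (interval 0.17 to 1.01, adjusted p = 0.0987), and it was positive in all 16 alternatives (0.59 to 1.53).

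Flt1 (ENSMUSG00000029648.13, chr5:147561604-147726011, minus strand) encodes a receptor with strong VEGF binding and a soluble form that traps the ligand. It held 27.0, 43.3 and 12.2 CPM in WT/Sed, against 46.2, 40.8 and 44.5 CPM in Cdo1KKO/Sed. WT/Sed replicate 2 lay inside the Cdo1KKO/Sed range and the other 2 WT/Sed libraries below it (log2 fold change 0.69 ± 0.48, adjusted p = 0.339). A count per gene covers all 6 annotated transcripts, so soluble and membrane forms were not separated.

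Of the TIE receptors, Tek (ENSMUSG00000006386.15, chr4:94739289-94874976, plus strand), which binds the angiopoietins, held 16.9, 27.1 and 7.01 CPM in WT/Sed, against 26.1, 25.2 and 28.1 CPM in Cdo1KKO/Sed. Tie1 (ENSMUSG00000033191.14, chr4:118471191-118490061, minus strand), its partner with no ligand of its own that is firmly known, held 11.7, 21.6 and 6.45 CPM against 14.9, 14.7 and 17.0 CPM. For Tek, WT/Sed replicate 2 fell within the Cdo1KKO/Sed values, and for Tie1 it was above all of them. The log2 fold changes were 0.66 ± 0.50 for Tek (adjusted p = 0.378) and 0.25 ± 0.45 for Tie1 (adjusted p = 0.718). Without WT/Sed replicate 3 the Tie1 value turned to -0.084 (adjusted p = 0.843), and without WT/Sed replicate 2 Tie1 was called higher (adjusted p = 0.047).

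The adhesion molecules of the cell border varied in the same way. Pecam1 (ENSMUSG00000020717.19, chr11:106654217-106750628, minus strand), a junctional immunoglobulin protein, held 23.2, 38.2 and 11.02 CPM in WT/Sed, against 39.4, 37.9 and 37.5 CPM in Cdo1KKO/Sed (log2 fold change 0.68 ± 0.47, adjusted p = 0.330). Cdh5 (ENSMUSG00000031871.9, chr8:104101625-104144511, plus strand), VE-cadherin of the adherens junction, held 11.97, 22.1 and 5.45 CPM against 19.9, 20.4 and 19.4 CPM (0.62 ± 0.52, adjusted p = 0.416). WT/Sed replicate 2 reached the Cdo1KKO/Sed level of Pecam1 and passed that of Cdh5, while replicate 3 held 28.8% and 27.4% of the Cdo1KKO/Sed mean.

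Emcn (ENSMUSG00000054690.17, chr3:137341067-137432185, plus strand), a surface sialomucin, held 24.4, 41.3 and 10.8 CPM in WT/Sed, against 41.0, 36.7 and 38.1 CPM in Cdo1KKO/Sed (log2 fold change 0.62 ± 0.51, adjusted p = 0.413). Eng (ENSMUSG00000026814.16, chr2:32646595-32682669, plus strand), endoglin, the co-receptor for BMP9 and TGF-beta, held 24.5, 41.2 and 12.04 CPM against 34.6, 35.2 and 32.6 CPM (0.42 ± 0.47, adjusted p = 0.550). Plvap (ENSMUSG00000034845.6, chr8:71497765-71511752, minus strand), which builds the diaphragms of fenestrae and caveolae, held 27.0, 53.2 and 10.7 CPM against 32.8, 34.2 and 29.5 CPM (0.11 ± 0.61, adjusted p = 0.915). WT/Sed replicate 2 was above every Cdo1KKO/Sed library for all 3 genes. For Plvap it held 166% of the Cdo1KKO/Sed mean and replicate 3 held 33.1%, the widest spread of the 10 genes (4.996-fold between these 2 kidneys). Without replicate 3 the Plvap value turned to -0.31 (adjusted p = 0.574). The gene model of Plvap overlaps that of Gtpbp3 and the end of Eng that of Fpgs, both on the opposite strand, and the strandedness of the counts is not given.

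The secreted protein gene Egfl7 (ENSMUSG00000026921.20, chr2:26580014-26593120, plus strand) went the other way from the rest. It held 15.1, 20.8 and 6.88 CPM in WT/Sed, against 12.4, 11.5 and 11.6 CPM in Cdo1KKO/Sed, so that WT/Sed replicates 1 and 2 were above and replicate 3 below all Cdo1KKO/Sed libraries. With all libraries the log2 fold change was -0.25 ± 0.40 (adjusted p = 0.677). Without WT/Sed replicate 3 it was -0.60 ± 0.12 (adjusted p = 0.00112), and without WT/Sed replicate 2 it was 0.11 (adjusted p = 0.848). The direction of Egfl7 thus rested on which WT/Sed library was counted. Its model overlaps the end of Agpat2 on the opposite strand.

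**Figure D2:**
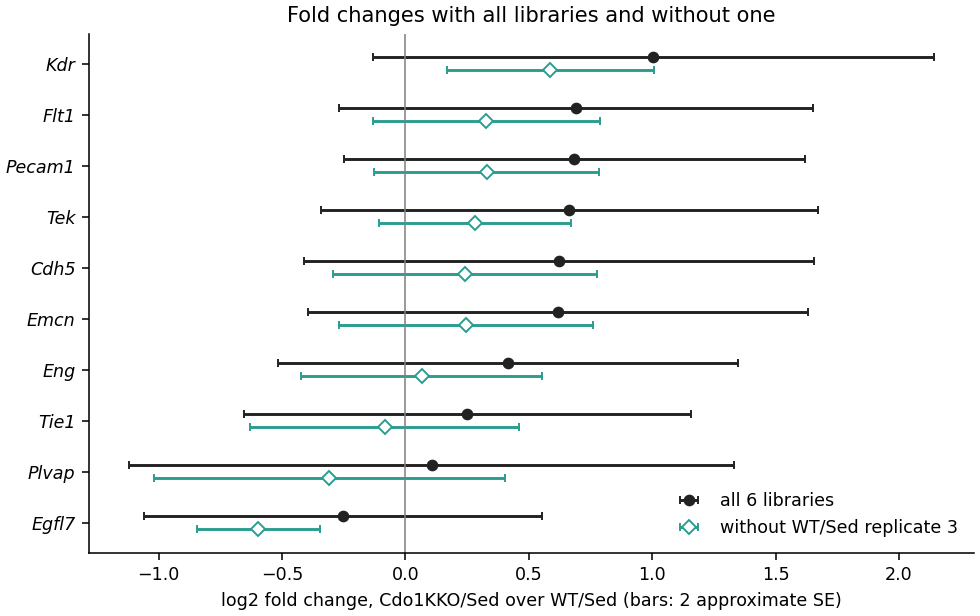
Log2 fold change of each endothelial gene, Cdo1KKO/Sed over WT/Sed, with bars of 2 approximate SE, for all 6 libraries and without WT/Sed replicate 3. With all libraries every bar crosses 0; without the replicate, Egfl7 lies at -0.60 and the Plvap and Tie1 values are below 0.

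The 10 genes varied together among the WT/Sed kidneys. Without WT/Sed replicate 3 the log2 fold changes not yet given were 0.33 for Pecam1 and Flt1, 0.28 for Tek, 0.24 for Cdh5 and Emcn and 0.066 for Eng, with adjusted p from 0.312 to 0.867. Leaving out WT/Sed replicate 2 moved the values the other way, to 1.525 for Kdr, 1.197 for Cdh5 and 1.165 for Pecam1 and Flt1. Those of Tek, Emcn, Eng, Tie1 and Plvap were then 1.156, 1.135, 0.90, 0.78 and 0.78. In all 10 the order from high to low was replicate 2, replicate 1, replicate 3, an order found in 27.4% of all genes tested, and in all 10 replicate 3 held less than 75% of the lower of the other libraries, which was the case in 10.1% of all genes. The highest WT/Sed value was 3.02 to 4.996 times the lowest (median 3.67), against a median of 1.23 over all genes, and 6.88% of genes spread as far as the least spread of the 10. In Cdo1KKO/Sed the same ratio was 1.04 to 1.16 (median 1.10, all genes 1.14). The coefficient of variation was 49.1% to 70.9% in WT/Sed, against 2.13% to 8.09% in Cdo1KKO/Sed. Counting error was small beside this, since the smallest count of a gene in a library was 224, a counting error of 6.68%.

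Podocyte, arterial and mural cell markers varied along with them. The median tested podocyte marker, from a list of 10, stood at 116%, 162% and 89.8% of its Cdo1KKO/Sed mean in WT/Sed replicates 1, 2 and 3, against 63.5%, 109% and 28.5% for the endothelial genes. The median of 12 pericyte, mesangial and smooth muscle markers stood at 75.7%, 108% and 67.0%. The order 2, 1, 3 was seen in 9 of 10 podocyte, 8 of 8 arterial, 9 of 12 mural and 11 of 12 macrophage genes, and in 6 of 10 proximal tubule genes. Summed levels of the podocyte list ran from 259.5 to 488 CPM in WT/Sed and from 301.5 to 322 CPM in Cdo1KKO/Sed, and those of the mural list from 99.4 to 177 and from 129 to 138 CPM. No defining marker of these 2 lists was at 0, and the part of tissue composition in the endothelial values was not tested.

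**Figure D3:**
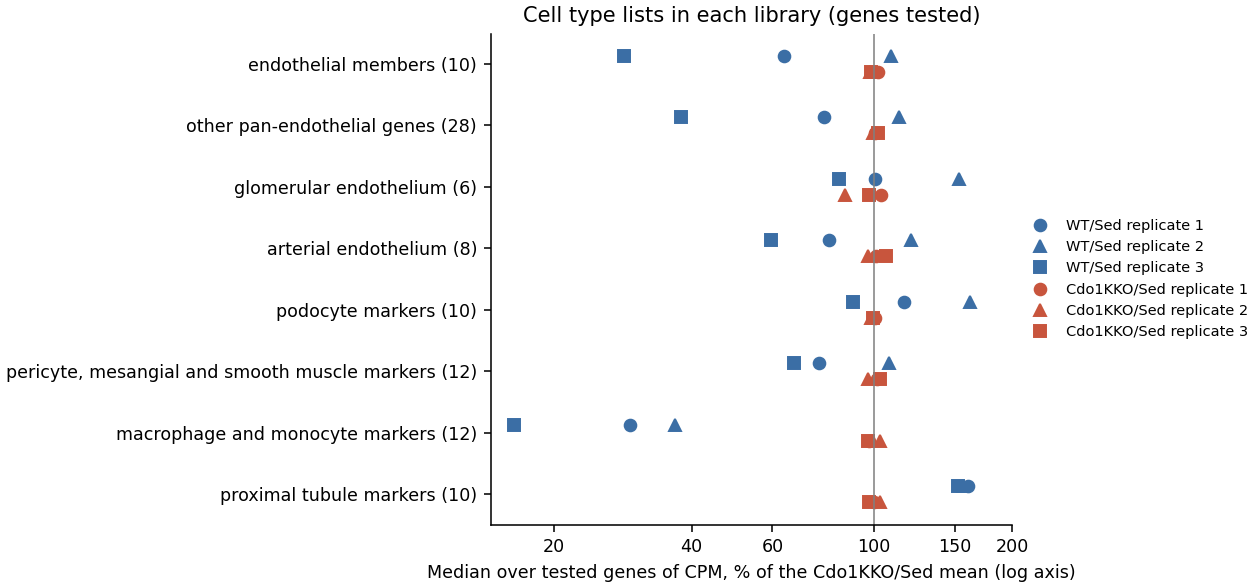
Median over the tested genes of each cell type list, as a percent of the gene's Cdo1KKO/Sed mean (log axis), 1 point per library. The WT/Sed points of the endothelial genes run from 28.5% to 109%, wider than those of the podocyte list (89.8% to 162%).

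A share within a library does not depend on how libraries are scaled against each other. The TPM of each gene was therefore divided by the sum over the 10 genes, which was 104.5, 179 and 46.2 TPM in WT/Sed, against 177, 171 and 171 TPM in Cdo1KKO/Sed. The summed levels of the groups overlapped. Kdr made up 6.68%, 6.05% and 5.23% in WT/Sed, against 9.05%, 9.04% and 9.65% in Cdo1KKO/Sed (mean 5.99 ± 0.73 and 9.25 ± 0.35, SD, n = 3). Egfl7 made up 9.16%, 7.26% and 9.57% against 5.34%, 5.04% and 5.16% (8.67 ± 1.23 and 5.18 ± 0.15). The 3 libraries of each group stood apart for both genes, Kdr higher and Egfl7 lower in Cdo1KKO/Sed.

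The shares of Pecam1, Cdh5, Flt1, Emcn and Tek were also higher in every Cdo1KKO/Sed than in every WT/Sed library, by 1.43, 1.01, 0.80, 1.39 and 1.34 percentage points. In an exact 2-sided permutation test each of these 7 shares gave p = 0.1, the smallest value that 3 libraries against 3 allow (0.143 after Benjamini-Hochberg adjustment over the 10 shares), so none could pass the threshold. Plvap held the largest share, 29.5%, 33.5% and 26.7% in WT/Sed, against 25.4%, 26.9% and 23.7% in Cdo1KKO/Sed (exact p = 0.2). Eng (exact p = 0.8) and Tie1 (exact p = 0.3) overlapped too. The differences for Kdr ranged from 2.88 to 3.60 points and those for Egfl7 from -4.19 to -3.03 points when any 1 library was left out. Shares sum to 100%, so a higher share of some genes lowers that of others, and the 7 are not separate observations. By CPM, a different measure, 25.7% of all genes were higher and 24.5% lower in Cdo1KKO/Sed without overlap.

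**Figure D4:**
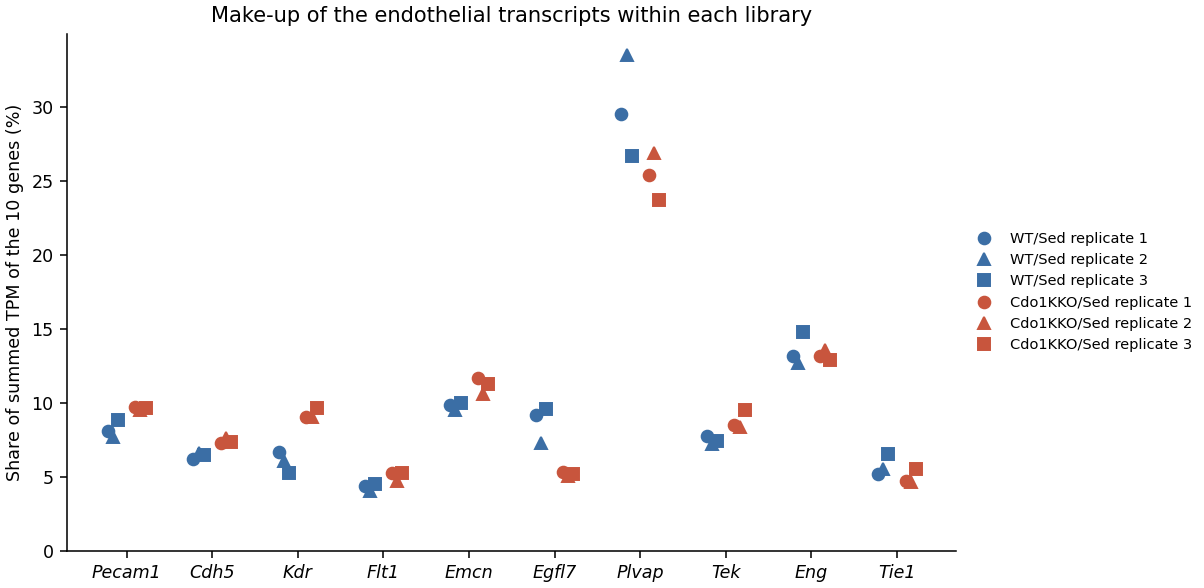
Share of each gene in the summed TPM of the 10 endothelial genes (%), 1 point per library. Kdr lies at 5.23% to 6.68% in WT/Sed and above 9% in Cdo1KKO/Sed, Egfl7 at 7.26% to 9.57% and 5.04% to 5.34%, and the Plvap, Eng and Tie1 points overlap.

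Of 4 ratios computed on the scale of TPM, per length, the 2 within a receptor family are given, since the others paired a gene of high with a gene of low fold change. Kdr over Flt1, the ratio of the VEGF receptors, was 1.54, 1.51 and 1.16 in WT/Sed, against 1.72, 1.91 and 1.83 in Cdo1KKO/Sed. Tek over Tie1 was 1.498, 1.31 and 1.13 against 1.82, 1.79 and 1.72. An exact 2-sided permutation test gave p = 0.1 for both, again the smallest possible (0.1 after Benjamini-Hochberg adjustment over the 4). In both ratios the lowest Cdo1KKO/Sed library was above the highest WT/Sed library. These 2 ratios also set a gene of higher over one of lower log2 fold change (Kdr 1.00 over Flt1 0.69, Tek 0.66 over Tie1 0.25). They are therefore not observations separate from the fold changes and shares given above. How often ratios of other gene pairs stood apart was not counted.

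By level per transcript length, Plvap was the most abundant of the 10 genes in both groups, at 34.4 ± 24.0 TPM in WT/Sed, against 43.8 ± 2.90 TPM in Cdo1KKO/Sed (SD, n = 3). In Cdo1KKO/Sed it was followed by Eng (22.8 ± 0.72), Emcn (19.3 ± 1.28), Pecam1 (16.6 ± 0.51), Kdr (15.97 ± 0.52), Tek (15.2 ± 1.01), Cdh5 (12.8 ± 0.22), Egfl7 (8.95 ± 0.44), Flt1 (8.79 ± 0.65) and Tie1 (8.56 ± 0.77). Neighbours in this order were apart in Cdo1KKO/Sed except for Pecam1 and Kdr, Kdr and Tek, Egfl7 and Flt1, and Flt1 and Tie1, whose libraries overlapped. By TPM within a library, Egfl7 ranked 4, 5 and 4 of 10 in WT/Sed, against 8, 8 and 10 in Cdo1KKO/Sed, and Kdr 7, 8 and 9 against 5, 5 and 4. TPM raised the Cdo1KKO/Sed values of the median gene by 0.19 on the log2 scale of TPM plus 1, so levels are not compared between the groups on this scale.

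The 5 genes outside every list whose pattern over the 6 libraries was most like the mean of the 10 were Slc43a3 (Pearson r 0.998), Tcim (0.996), P2ry10b (0.995), Esm1 (0.994) and Rftn1 (0.994). The libraries are shared between all genes, and the likeness mostly follows the WT/Sed order. Esm1, a secreted proteoglycan known from endothelial tip cells, held 13.5, 26.5 and 3.21 CPM in WT/Sed, against 25.1, 22.2 and 24.5 CPM in Cdo1KKO/Sed. It was not called (adjusted p = 0.492).

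The genes around the 10 were counted in 12 lists of pathways and beds of blood vessels, without the lymphatic list, with 122 genes tested. Of these, 33 rose (27.0%) and 7 fell (5.74%), against 18.9% and 18.5% of all genes, and their median log2 fold change was 0.29. Counts of each list below are to be read against these shares of all genes, and the single lists are small. Without WT/Sed replicate 3, 33 rose and 13 fell (median 0.13). The count of rises was 18 without WT/Sed replicate 1 or Cdo1KKO/Sed replicate 3 and 53 without WT/Sed replicate 2. Other kidney cells also express many of these genes, Vegfa and Ctnnb1 among them. Genes called below did not all share the WT/Sed spread of the 10. WT/Sed replicate 3 held 115.5% (Angpt2), 95.7% (Edn1), 94.3% (Ets2) and 90.7% (Nrp1) of the mean of the other WT/Sed libraries. It held 26.6% to 38.6% for the 10, and 47.8% for Nrp2 and 52.2% for Ets1, which also rose. Which cells expressed the called genes was not tested.

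Of 28 other genes of all endothelial cells, 2 rose and 0 fell, where 18.9% of all genes rose and 18.5% fell. In 10 the Cdo1KKO/Sed libraries were higher without overlap, against 25.7% of all genes. The WT/Sed order 2, 1, 3 was seen in 27, against 27.4% of all genes. WT/Sed replicate 3 held 21.7% to 87.2% of the mean of the other WT/Sed libraries, against 26.6% to 38.6% for the 10. Tspan7, a membrane tetraspanin, rose by a log2 fold change of 0.30 ± 0.08 (adjusted p = 0.0106). Tspan7 was the gene at 87.2%, so it shared the WT/Sed spread of the 10 least of this list. Rasip1, which acts in forming the vessel lumen, rose from 1.93, 2.47 and 1.07 CPM to 3.77, 3.32 and 2.51 CPM (0.83 ± 0.29, adjusted p = 0.0472). Its lowest Cdo1KKO/Sed library was just above its highest WT/Sed library. Rasip1 lost its call without any 1 library other than WT/Sed replicate 2 (adjusted p 0.0588 to 0.173), and Tspan7 lost it without WT/Sed replicate 1 (0.0564) or Cdo1KKO/Sed replicate 3 (0.0603). The count of rises was 0 to 11 when 1 library was left out. Without WT/Sed replicate 3, 3 rose and 1 fell, S1pr1 (-0.52, adjusted p = 0.014), where 20.3% of all genes rose and 20% fell.

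The ligands and co-receptors of VEGF split by direction, with 3 of 8 tested genes higher and 2 lower. Vegfa, the main ligand of KDR, held 365, 400.0 and 346.5 CPM in WT/Sed, against 256, 254 and 262 CPM in Cdo1KKO/Sed and fell by 0.52 ± 0.06 on the log2 scale (adjusted p = 4.65e-05). Vegfb, a ligand of FLT1, held 29.8, 28.9 and 26.6 against 17.0, 16.4 and 15.9 CPM (-0.79 ± 0.08, adjusted p = 1.32e-05). Both groups were narrow for these ligands and did not overlap. Nrp1, a co-receptor of KDR, rose from 30.0, 33.9 and 28.9 to 55.8, 53.7 and 54.1 CPM (0.82 ± 0.07, adjusted p = 5.72e-06). Nrp2, more of veins and lymphatics, rose by 1.11 ± 0.27 (adjusted p = 0.0130). Leaving out WT/Sed replicate 1 ended its call (adjusted p = 0.0555). Pgf, placental growth factor, had 7, 4 and 2 counts in WT/Sed, against 11, 13 and 22 in Cdo1KKO/Sed (1.61 ± 0.58, adjusted p = 0.0490) and lost its call without any 1 library (0.0676 to 0.186) and with DESeq2 (0.102).

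Of the angiopoietins and partners of TIE, 3 of 7 tested genes rose and 0 fell. Angpt2, which can oppose TIE2 signalling and is made by activated endothelium, held 4.47, 4.12 and 4.96 CPM in WT/Sed, against 7.17, 8.63 and 9.90 CPM in Cdo1KKO/Sed (log2 fold change 0.92 ± 0.15, adjusted p = 0.000654). Angpt1, the activating ligand, rose by 0.27 ± 0.08 (adjusted p = 0.0250), and Svep1, a matrix protein that binds TIE1, by 0.67 ± 0.23 (adjusted p = 0.0462). The Angpt2 libraries were well apart. Angpt1 and Svep1 lost their calls when WT/Sed replicate 1 was left out (adjusted p 0.102 and 0.143), or any of the 3 Cdo1KKO/Sed libraries (0.0637 to 0.166), and Svep1 also without WT/Sed replicate 3 (0.0611).

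In the endoglin and ALK1 pathway, 3 of 10 tested genes rose and 0 fell. Id3, a target of BMP signalling, held 12.03, 15.2 and 7.39 CPM in WT/Sed, against 47.6, 51.0 and 50.5 CPM in Cdo1KKO/Sed (log2 fold change 2.12 ± 0.25, adjusted p = 0.00130). Smad1, a BMP signal transducer, rose from 9.87, 8.96 and 9.34 to 21.0, 22.2 and 21.7 CPM (1.20 ± 0.08, adjusted p = 1.37e-06). Bmpr2, a BMP receptor, rose by 0.26 ± 0.07 (adjusted p = 0.0126), a call that ended without WT/Sed replicate 1 (0.0731) or Cdo1KKO/Sed replicate 3 (0.0734). The other 7 tested genes were not called. Among them were Acvrl1, the ALK1 gene (0.26 ± 0.31, adjusted p = 0.565), Id1 (0.59 ± 0.40, adjusted p = 0.311) and Smad6 (0.096 ± 0.20, adjusted p = 0.7425). Smad7 alone was negative (-0.37 ± 0.19, adjusted p = 0.167). Without WT/Sed replicate 3, 4 of 11 tested genes rose and 1 fell, Smad7 (-0.55, adjusted p = 0.00113). The circulating ligand genes Gdf2 (BMP9) and Bmp10 were listed at 0 counts in all 6 libraries.

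Of 10 Notch pathway genes, 2 rose and 1 fell. The ligand Jag1 rose by 0.36 ± 0.08 (adjusted p = 0.00331) and the receptor Notch1 by 0.66 ± 0.20 (adjusted p = 0.0261), while the target gene Hes1 fell by 0.39 ± 0.11 (adjusted p = 0.0191). Leaving out WT/Sed replicate 1 ended the Notch1 and Hes1 calls (adjusted p 0.117 and 0.0781), as did leaving out any of the 3 Cdo1KKO/Sed libraries (0.0531 to 0.0936). Of 14 junction and caveola genes 6 rose and 0 fell, among them the catenin gene Ctnnb1 (0.30 ± 0.05, adjusted p = 0.000759), Jam3 (0.40 ± 0.08, adjusted p = 0.00160), Cav2 (0.34 ± 0.07, adjusted p = 0.00243) and Ptprm (0.60 ± 0.12, adjusted p = 0.00301).

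Transcription factors known in endothelium included 6 of 16 that rose and 0 that fell. The ETS family genes Ets2 and Ets1 were the highest of the 6 by fold change. Ets2 held 46.0, 50.9 and 45.7 CPM in WT/Sed, against 105, 110 and 111 CPM in Cdo1KKO/Sed (log2 fold change 1.19 ± 0.06, adjusted p = 1.13e-07), and Ets1 held 10.02, 15.6 and 6.69 against 23.8, 23.6 and 24.1 CPM (1.17 ± 0.29, adjusted p = 0.0255). Mef2c (1.05 ± 0.21, adjusted p = 0.00286) and Bcl6b (1.10 ± 0.27, adjusted p = 0.00851) rose as well. The endothelial ETS factor gene Fli1 had a log2 fold change of 0.46 ± 0.17 and was not called (adjusted p = 0.0561), but 8 of 16 alternatives called it higher, DESeq2 (0.0433) and limma-voom (0.0294) among them. Ets1 lost its call when WT/Sed replicate 1 was left out (adjusted p = 0.0841), or any of the 3 Cdo1KKO/Sed libraries (0.0621 to 0.0684), and Bcl6b without WT/Sed replicate 1 (0.0542) or Cdo1KKO/Sed replicate 3 (0.05). The ETS factor gene Erg was not called (0.66 ± 0.47, adjusted p = 0.333), and its WT/Sed replicate 3 held 32.5% of the mean of the other WT/Sed libraries. The count of rises was 2 to 11 and that of falls 0 to 3 when 1 library was left out. Without WT/Sed replicate 3, 6 rose and 3 fell. Those that fell were Klf2 (-0.77, adjusted p = 0.00532), Sox7 (-0.84, adjusted p = 0.0231) and Gata2 (-0.28, adjusted p = 0.0279).

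Adhesion genes of activated endothelium were higher in 4 of 5 tested cases. The tested gene that was not called was Sele, the E-selectin gene (log2 fold change -0.023 ± 0.44, adjusted p = 0.976). Its counts were low, at 19, 10 and 28 in WT/Sed, against 20, 11 and 30 in Cdo1KKO/Sed. Icam1, a ligand of leukocyte integrins, held 9.996, 9.67 and 9.97 CPM in WT/Sed, against 27.8, 29.7 and 27.9 CPM in Cdo1KKO/Sed (log2 fold change 1.53 ± 0.08, adjusted p = 1.12e-07). Vcam1 rose from 5.34, 6.48 and 3.02 to 19.6, 15.3 and 18.9 CPM (1.88 ± 0.25, adjusted p = 0.000936), and Cd44 by 2.66 ± 0.22 (adjusted p = 4.60e-06). All 3 were apart between groups in every library. Cx3cl1, the chemokine fractalkine, rose by 0.27 ± 0.07 (adjusted p = 0.0113), a call lost without Cdo1KKO/Sed replicate 2 (0.0503) or 3 (0.0600). Selp, P-selectin of endothelium and platelets, had 0 counts in every WT/Sed library and 7, 6 and 28 in Cdo1KKO/Sed and did not pass the filter. Injured tubule cells and leukocytes also express Icam1, Vcam1 and Cd44. Beside them, 10 of 12 macrophage markers rose and 1 fell (Csf1r, -0.33 ± 0.09, adjusted p = 0.0120), with a summed level of 62.7 to 101 CPM in WT/Sed, against 399 to 431 CPM in Cdo1KKO/Sed. Most of that difference was Cd14, at 2.87 to 4.87 CPM and 274 to 297 CPM, and the other 11 markers summed to 59.8 to 95.95 CPM and 125 to 134 CPM. None of these markers was at 0, and their part in the adhesion genes was not tested. Csf1r lost its call without Cdo1KKO/Sed replicate 1 (0.0563) and with TPM plus 1 (0.513).

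Of 12 genes of vascular tone and haemostasis, 2 rose and 0 fell. Edn1, the vasoconstrictor endothelin, held 0.951, 1.39 and 1.12 CPM in WT/Sed, against 4.84, 4.402 and 5.60 CPM in Cdo1KKO/Sed (log2 fold change 2.12 ± 0.21, adjusted p = 1.70e-05). It was more than 4-fold higher by this fold change, and the groups did not overlap. Platelet markers tested beside them gave 1 of 5 risen, the integrin gene Itgb3 (1.91 ± 0.24, adjusted p = 0.000106), while Gp1bb was listed at 0 counts and the list summed to 9.17 to 9.58 CPM in WT/Sed, against 11.5 to 13.3 CPM in Cdo1KKO/Sed. Without Itgb3 the list summed to 7.53 to 8.71 CPM and 7.01 to 7.57 CPM, and the most abundant platelet marker, Itga2b, had a log2 fold change of -0.31 ± 0.12 (adjusted p = 0.0737). Their part was not tested.

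Genes listed as markers of single vessel beds were called in 1 of 6 glomerular, 1 of 8 arterial and 4 of 8 venous and vasa recta genes, against 37.4% of all genes in either direction. Of 6 glomerular endothelial genes 0 rose and 1 fell, Pi16 (-0.69 ± 0.24, adjusted p = 0.0441), which kept its call only without WT/Sed replicate 3 among the libraries left out (0.0585 to 0.169 for the other 5). Of 8 arterial genes 1 rose, Fbln5, an elastic fibre protein (1.24 ± 0.20, adjusted p = 0.00318), and 0 fell. Of 8 genes of veins and vasa recta, the vessels of the medulla, Igfbp5 rose (0.48 ± 0.15, adjusted p = 0.0443) and Gpm6a (-0.60 ± 0.06, adjusted p = 3.37e-05), Igfbp7 (-0.44 ± 0.05, adjusted p = 3.90e-05) and Nr2f2 (-0.37 ± 0.05, adjusted p = 0.000114) fell. Igfbp5 lost its call without WT/Sed replicate 1 (adjusted p = 0.118) or any 1 Cdo1KKO/Sed library (0.0941 to 0.106). WT/Sed replicate 3 held 113.8% (Gpm6a), 98.3% (Igfbp7), 100.4% (Nr2f2) and 72.7% (Igfbp5) of the mean of the other WT/Sed libraries. It held 26.6% to 38.6% for the endothelial genes named at the start, and 31.8% and 30.7% for the uncalled Igfbp3 and Npr3 of this list. Whether the falls arose in veins and vasa recta or in other kidney cells was not tested. Of 6 lymphatic genes 1 rose, Pdpn (0.38 ± 0.14, adjusted p = 0.0495), also a podocyte gene, and the call was kept only without Cdo1KKO/Sed replicate 2 (0.0691 to 0.225 for the other 5 libraries) and was lost with DESeq2 (0.0588).

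**Figure D5:**
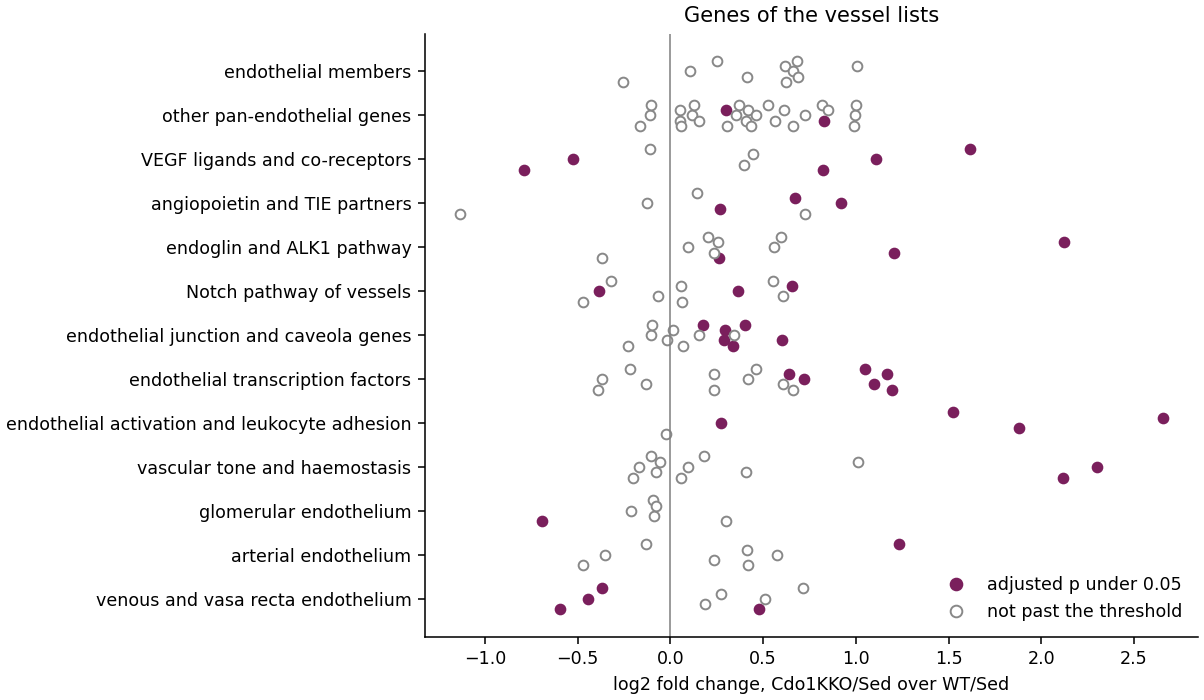
Log2 fold change, Cdo1KKO/Sed over WT/Sed, of each tested gene in the endothelial genes and the 12 vessel lists; 1 point is 1 gene, with called genes in colour. The endothelial genes and the other pan-endothelial genes lie mostly above 0 with 0 and 2 calls, while the adhesion genes reach 2.66.

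The neighbours of the glomerular and peritubular capillaries were counted in the same fit. Of 10 podocyte markers 0 rose and 3 fell, among them Wt1 (-0.79 ± 0.20, adjusted p = 0.0131) and Cdkn1c (-0.74 ± 0.18, adjusted p = 0.00942). Wt1 lost its call without Cdo1KKO/Sed replicate 1 (0.0512) or 3 (0.0566), and Cdkn1c without WT/Sed replicate 1 (0.0511) or Cdo1KKO/Sed replicate 2 (0.0503) or 3 (0.0511). Of 12 pericyte, mesangial and smooth muscle markers 4 rose, with Pdgfrb, the receptor that recruits pericytes, at 1.11 ± 0.22 (adjusted p = 0.00422), and 1 fell, the renin gene Ren1 (-1.27 ± 0.25, adjusted p = 0.0120). The other 3 that rose, Des, Notch3 and Cspg4, each lost the call without 2 to 4 of the single libraries (adjusted p 0.0506 to 0.142), and the count of rises was 1 to 6 when 1 library was left out. All 10 proximal tubule markers fell, among them Hnf4a (-0.76 ± 0.06, adjusted p = 2.83e-06). Their summed level was 40260 to 46244 CPM in WT/Sed, against 27736 to 30835 CPM in Cdo1KKO/Sed, and its part in the endothelial levels was not tested.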

How the data were processed

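Per the labels' protocols, poly(A) RNA of kidney was sequenced from 2 groups of 3 libraries. The authors deposited raw counts per gene and TPM values for 55401 identifiers. The submitters' processing notes name fastp 0.23.4 and the builds GRCm38 and mm10; the aligner, counter, annotation and strandedness were not given in the sources. Positions came from GENCODE M21 on GRCm38, matched by identifier without its version where versions differ (Egfl7), and promoters from RefSeq GRCm38.p6.

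Counts were filtered with filterByExpr (17194 genes left), scaled by TMM and tested with a robust edgeR 4.0.16 quasi-likelihood test in R 4.3.3, with genotype as the only term and Benjamini-Hochberg adjustment over all genes tested. The SE is the absolute log2 fold change divided by the square root of F. Shares and ratios use the deposited TPM values and an exact permutation test (scipy 1.17.1). The edgeR fit was tested on simulated counts. Libraries held 28145261 to 43872779 counts, and no unique molecular identifiers are stated, so counting errors cover counting only.

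The 10 genes and 18 other lists were chosen with earlier results of these data known. Named were the 10 genes, Cdo1, up to 4 genes of each list with the smallest p, genes that complete a count of 5 or fewer calls, and the 5 genes of no list most like the 10 (correlation of log2 CPM with their mean standardised log2 CPM). Gdf2, Bmp10, Selp and Gp1bb were named after their values were seen. So were Igfbp3, Npr3, Sele, Erg, Klf2, Sox7, Gata2, Acvrl1, Id1, Smad6, Smad7 and S1pr1. The list sums without Cd14 and without Itgb3 were also added then. Some genes that the rule selects are not reported here. Alternatives were RLE, upper quartile or no scaling factors, DESeq2 1.42.0, limma-voom (limma 3.58.1), no filter or 1 CPM in 3 libraries, limma on log2(TPM + 1) or log2(TPM + 0.1), a replicate block, and leaving out each library. The list holds Vegfd under its present symbol, and its older symbol Figf was not matched. Deviations of same-numbered libraries from their group means correlated by -0.00218, 0.0105 and 0.0125.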

Additional observations from a re-analysis of the deposited data

How the results depend on the processing

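The 10 endothelial genes stayed uncalled with RLE, upper quartile and no scaling factors, DESeq2, limma-voom, no filter, the filter of 1 CPM and the replicate block. With limma on TPM plus 1, 3 were called higher (Pecam1, adjusted p 0.042, Kdr, 0.0277, and Flt1, 0.043), and on TPM plus 0.1, 1 (Kdr, 0.0374). Leaving out 1 library gave 0 to 1 rise and 0 to 1 fall among the 10. Egfl7 turned positive on TPM plus 1 (0.10), on TPM plus 0.1 (0.12) and without WT/Sed replicate 2 (0.11), and without WT/Sed replicate 3 Plvap (-0.31) and Tie1 (-0.084) turned negative and the Eng share difference turned to 0.256 points. Over the libraries left out, Egfl7 ran from -0.60 to 0.11, Plvap from -0.31 to 0.78, Tie1 from -0.084 to 0.78 and the Eng share difference from -0.79 to 0.256 points. On TPM plus 1 and TPM plus 0.1 the median over all genes was 0.19 and 0.26, so Egfl7 stayed below the median gene there. The cause of the changes between libraries left out was not tested.

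Of the vessel lists, 54 genes rose and 4 fell on TPM plus 1 and 52 and 4 on TPM plus 0.1, and 18 to 53 rose and 5 to 13 fell when 1 library was left out. Over all genes, 5513 rose and 1685 fell with library size alone (76.6% rises against 50.5%), 6784 and 1246 on TPM plus 1 (84.5%) and 6660 and 1224 on TPM plus 0.1, and the median log2 fold change moved from 0.01 to 0.18, 0.19 and 0.26. Leaving out 1 library gave 2306 to 3767 rises and 2331 to 3553 falls. Uncalled list genes also changed sign. Ptgs1 did so with library size (0.0026), TPM plus 1 (0.082) and TPM plus 0.1 (0.090), and Lpl on both TPM scales (0.0496 and 0.0497). Gata5 turned to -0.20 without Cdo1KKO/Sed replicate 1 (leaving out 1 library, -0.20 to 0.57). Tbx3 turned to 0.078 with library size, 0.0057 with limma-voom, 0.10 and 0.16 on the TPM scales, 0.23 without WT/Sed replicate 2 and 0.039 without Cdo1KKO/Sed replicate 2 (leaving out 1 library, -0.30 to 0.23). Calls of named genes were also lost with library size alone (Hes1, Pi16 and Csf1r, 0.112 to 0.163), limma-voom (Pi16, 0.0654, and Pdpn, 0.052), RLE factors (Pdpn, 0.0511), on the TPM scales (Hes1, Pi16, Nr2f2, Cdkn1c, Wt1 and Csf1r, adjusted p 0.0712 to 0.514), with upper quartile factors (Rasip1, Svep1 and Igfbp5, 0.0506 to 0.0721) and with no filter (Ets1, 0.0906, and Pgf, 0.101).

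Same-numbered libraries did not deviate together, and not every library correlated best with its own number, so the numbers give no pairing. With the replicate block 3117 genes rose and 3029 fell, and 0 of the 10 were called; Pgf (0.0919), Pi16 (0.0831), Pdpn (0.0594) and Ren1 (0.063) lost their calls. Counting error of the 10 genes was at most 6.68% per library, small beside the spread of the WT/Sed libraries.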
